A study of Pyrus pyrifolia with 6 samples.

Results

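In bagged pear skin, CHH methylation was under 5% and below that of unbagged skin in 736 called regions with no CHH gain close by. These regions, called the low-level losses below, are the CHH regions on chromosomes of the authors' deposited table whose mean level was lower in bagged than in unbagged skin, was under 5% in bagged skin, and which had no CHH region higher in bagged skin within a gap of 2000 bp. They are 736 of the 4533 CHH losses on the 17 chromosomes (16.2%, 95% exact binomial interval 15.2 to 17.3) and 736 of the 53954 differentially methylated regions in the table. Among all 46661 CHH regions on chromosomes, 9.71% were lower in bagged skin. The regions were selected on their measured levels in both groups, so those levels are given as a description. Loss and gain mean a lower or higher level in bagged than in unbagged skin collected at the same day. The groups include no sample from before bagging. Words such as fell, kept, came from and went from therefore describe this contrast between groups, not a change over time.

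The fruit skin came from Pyrus pyrifolia 'Cuiguan', a pear whose skin turns partly russet, that is, brown and corky, grown on orchard trees of 7 years. Both groups are fruit of the same cultivar collected 115 days after full bloom: 3 skin samples of fruit in paper bags (white bags of 1 layer from day 20, yellow-white double-layer bags from day 40) and 3 of fruit left uncovered. Methylation was read by whole-genome bisulfite sequencing, in which unmethylated cytosines are read as thymine. The table holds 1 mean level per group and region with the replicates combined, which leaves every value without a measure of replicate spread. The depth behind each level is unknown, and whether any single loss exceeds the spread between fruit cannot be tested from these values.

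Plants methylate cytosines directly followed by a G (CG), separated from a G by 1 base H (CHG) or lying elsewhere (CHH), H being any base but G. The symmetric CG and CHG sites can be copied after replication by MET1 and CMT3, methyltransferases that act on hemimethylated DNA or on chromatin with methylated histone H3. CHH sites have no methylated partner on the other strand, so their methylation is laid down again after replication by DRM methyltransferases, guided by small RNAs in RNA-directed DNA methylation, and by CMT2, which in Arabidopsis works mainly in long transposons. Methylation can also be removed actively by DNA glycosylases of the ROS1 and DEMETER family. These pathways are background, and none of their products was measured here.

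The low-level losses also had less methylation in unbagged skin than the other losses away from gains, by the median. Their unbagged level had a median of 12.3% (quartiles 9.52 and 16.7, range 3.37 to 64.8), and their bagged level a median of 3.21% (quartiles 2.27 and 4.09, range 0.572 to 4.99). The median difference was -9.02 percentage points (quartiles -13.3 and -6.53). By comparison, the 2215 losses away from gains with a bagged level of 5% or more went from a median of 30.5% to 12.7%, a median difference of -15.3 points. A bagged level under 5% thus went with a smaller fall in points, as the limit itself favours regions that were low in both groups. The unbagged median of 12.3% lies near that of all 42128 CHH gains, 11.7%.

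Bagged skin kept a median of 23.5% of the unbagged level in the low-level losses (quartiles 17.5 and 30.9). Measured in this way, near-complete loss was uncommon. The bagged level was at most 10% of the unbagged level in 32 of the 736 regions (4.35%, exact binomial interval 2.99 to 6.08), at most 25% in 411 (55.8%) and at most 50% in 734. Of the 2215 other losses, 1 kept at most 10% and 140 kept at most 25%, an order that the limit on the bagged level favours. A bagged level under 1% was found in 16 low-level losses, a level under 2% in 125 and one under 3% in 323. The share of cytosines left unconverted by bisulfite was not stated by the submitters in the material used. How much of levels this low is incomplete conversion is therefore unknown. The lowest CHH level of any region on the chromosomes was 0.390% in unbagged and 0.572% in bagged skin, so that the background did not exceed these values in those regions. These are the lowest of all called regions and give no conversion rate for the others.

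**Figure D1:**
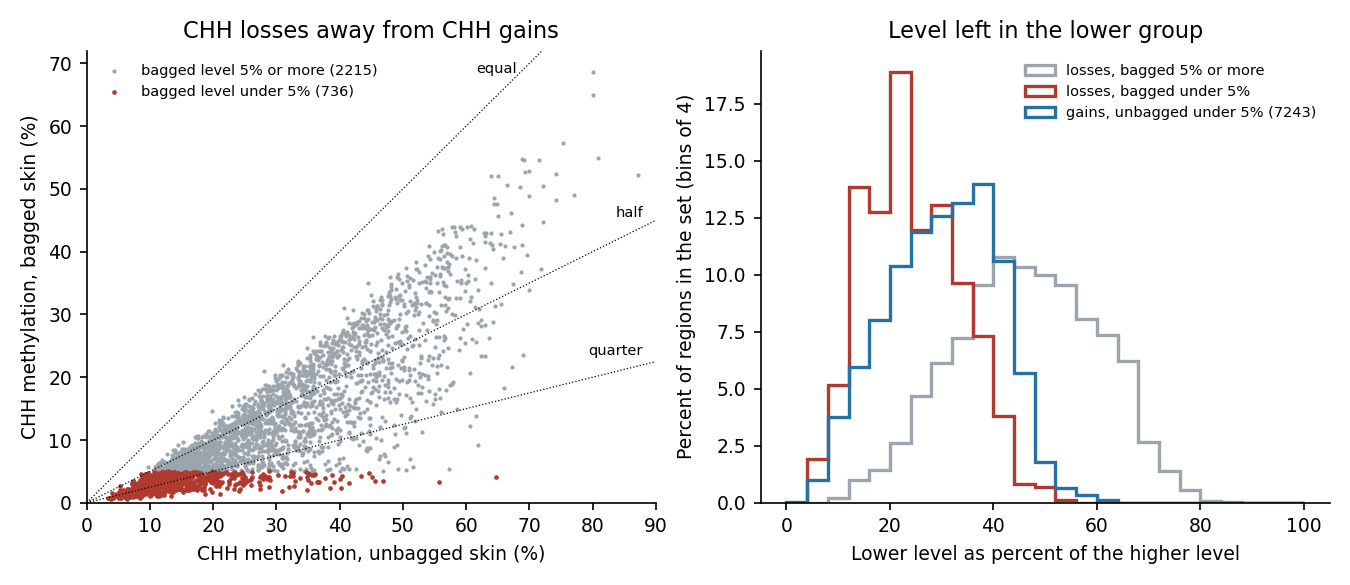
Left, the authors' mean CHH level in bagged skin (%, vertical axis) against unbagged skin (%, horizontal axis) for the 2951 CHH losses away from gains, 1 point per region, with dotted lines where bagged equals all, 50% or 25% of unbagged; right, the lower of both levels as percent of the higher, as a share of each set. The 736 low-level losses (red) lie mostly at unbagged levels under 20%. Their median remaining level of 23.5% lies to the left of the other losses (grey), an order that the limit on the bagged level favours.

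By unbagged level, 10 low-level losses came from under 5%, 212 from 5 to 10%, 395 from 10 to 20%, 80 from 20 to 30% and 39 from 30% or more. Regions of the last band kept a median of 10.3% of their unbagged level and those of the band from 5 to 10% a median of 28.0%, an order that the limit on the bagged level favours. The number of cytosines in the table was read as that of the region's own context, which the table does not state. In the last band 9 of the 39 regions had under 10 CHH cytosines, against 50 of all 736 (6.79%). The median number of cytosines was 28 in the band from 5 to 10%, 24 from 10 to 20%, 20 from 20 to 30% and 17 from 30% up, while median lengths stayed between 95 and 115 bp in these 4 bands.

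The regions with the highest unbagged levels were poorer in CHH cytosines. Density fell from a median of 28.1 CHH cytosines per 100 bp in the band from 5 to 10% to 16.7 in the band from 30% up. Across the 736 regions the unbagged level and the density had a Spearman rho of -0.40, below 0 on each of the 17 chromosomes. This relation was shared with other sets: rho was -0.24 in the 2215 other losses and -0.51 in the 373 losses under 5% that lay near a gain. All these regions come from the same pair of group means, and the part of region calling in this relation was not tested.

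The 10 regions with the highest unbagged level among those with at least 10 cytosines lay on 7 chromosomes. The highest was on chromosome 5 from 14226354 to 14226532, where 17 cytosines in 179 bp had 55.8% in unbagged and 3.32% in bagged skin. A second region on chromosome 5, from 14238979 to 14239099, followed after a gap of 12446 bp, with 37.8% and 3.88%. The only other member of this group on chromosome 5, from 330753 to 330899, had 40.3% and 4.31%. These 3 are also far apart in their distance from a CHH gain, with gaps of 24634, 12067 and 2185 bp.

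On chromosome 13, 11 cytosines from 6874658 to 6874710 had 45.6% in unbagged and 3.53% in bagged skin, and 18 cytosines from 11046861 to 11046981 had 38.5% and 2.43%. The region on chromosome 17 from 20228591 to 20228793 was the broadest of the 10, with 47 cytosines in 203 bp at 45.1% and 4.19%. It was also the one among the 10 resting on the most cytosines. The others were on chromosome 10 from 2218475 to 2218589 (44.7% and 4.69%), chromosome 16 from 17175186 to 17175289 (40.2% and 2.41%), chromosome 14 from 18352246 to 18352302 (40.1% and 3.82%) and chromosome 2 from 23001485 to 23001582 (38.9% and 4.38%). All 10 kept between 5.96 and 11.3% of their unbagged level. A still higher unbagged level, 64.8%, was found on chromosome 5 from 12292119 to 12292186, but it rests on 4 cytosines. It was picked after its value was seen.

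The regions with the most cytosines are described next. The low-level loss with the most CHH cytosines was on chromosome 7 from 1621775 to 1622120, where 133 cytosines in 346 bp had 10.3% in unbagged and 1.39% in bagged skin. Next came chromosome 15 from 1929782 to 1930087, with 91 cytosines at 11.4% and 1.86%. Of the regions with 90 cytosines, that on chromosome 4 from 1655437 to 1655746 went from 11.5% to 1.07%, and that on chromosome 6 from 1533976 to 1534300 from 18.0% to 4.42%. On chromosome 13 from 3857326 to 3857571, 89 cytosines went from 10.1% to 1.22%. Their unbagged levels were 10.1 to 18.0%, beside the median of 12.3% over all low-level losses.

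The longest low-level loss, 713 bp on chromosome 10 from 4033691 to 4034403, held only 16 CHH cytosines, at 16.6% in unbagged and 4.46% in bagged skin. That is 2.24 cytosines per 100 bp, the lowest density of the 736. A region of 366 bp on chromosome 9 from 20586173 to 20586538 held 88 cytosines, at 14.1% and 3.75%. Among the 5 longest was also a sparse region of 319 bp on chromosome 13 from 12236579 to 12236897, with 12 cytosines at 9.49% and 3.29%. Great length therefore did not always mean many cytosines. Genes and repeats at these places were not analysed here.

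At the 5% limit, the low-level losses just inside were on chromosome 15 from 28798680 to 28798749 (28.9% in unbagged and 4.99% in bagged skin), chromosome 1 from 2460141 to 2460302 (12.8% and 4.99%) and chromosome 12 from 5353583 to 5353774 (19.8% and 4.99%). Just outside were chromosome 14 from 14345482 to 14345575 (35.7% and 5.01%), chromosome 10 from 5240658 to 5240722 (13.7% and 5.01%) and chromosome 4 from 3913802 to 3913869 (18.2% and 5.01%). At the gap limit, the nearest CHH gain of the closest low-level losses was 2004 bp away for the region on chromosome 8 from 16497270 to 16497334 and for that on chromosome 15 from 26251975 to 26252070, and 2018 bp away for that on chromosome 2 from 7413260 to 7413437. The low-level regions just inside the gap had gains at 1992, 1986 and 1978 bp.

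What the limits did not use was then set beside the most similar regions, without a test over regions. The low-level losses were short, with a median of 99.5 bp (quartiles 68 and 139) and 24.5 CHH cytosines (16 and 37), or 25.6 cytosines per 100 bp. The 2215 other losses away from gains had medians of 93 bp, 23 cytosines and 25.6 per 100 bp. The 373 losses under 5% near a gain had 92 bp, 23 cytosines and 25.7 per 100 bp. Per chromosome, the median length of the low-level losses was above that of the other losses on 13 chromosomes, below it on 3 and equal on 1, and their median density was above it on 9 and below it on 8. The medians of the 3 sets of losses thus lay close together in length, number of cytosines and density.

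The clearer contrast was with gains. The mirror image of the low-level losses is a CHH gain from an unbagged level under 5% with no CHH loss within 2000 bp, of which there were 7243. These gains had medians of 113 bp, 32 cytosines and 28.9 cytosines per 100 bp, and their bagged level had a median of 10.6%. Their unbagged level was at most 10% of the bagged level in 195 (2.69%) and at most 25% in 2331 (32.2%). In the low-level losses, the bagged level was that far below the unbagged level in 4.35% and 55.8%. The low-level losses had the lower median density on 17 of 17 chromosomes, the shorter median length on 16 and the smaller median number of cytosines on 16. They cover 82.3 kb in all, against 938 kb for the mirror gains. The direction of the change fixed which group was near 0, so these values compare regions called in opposite directions. The gap limit also acts unequally, as gains outnumber losses. It keeps 736 of the 1109 losses under 5%, but 7243 of the 7562 gains from under 5%. With no limit on the gap, the losses under 5% had medians of 97 bp, 24 cytosines and 25.6 cytosines per 100 bp. The part of the gap limit in this contrast was not tested. Depth and thresholds of the calls, which could differ between directions, are unknown.

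**Figure D2:**
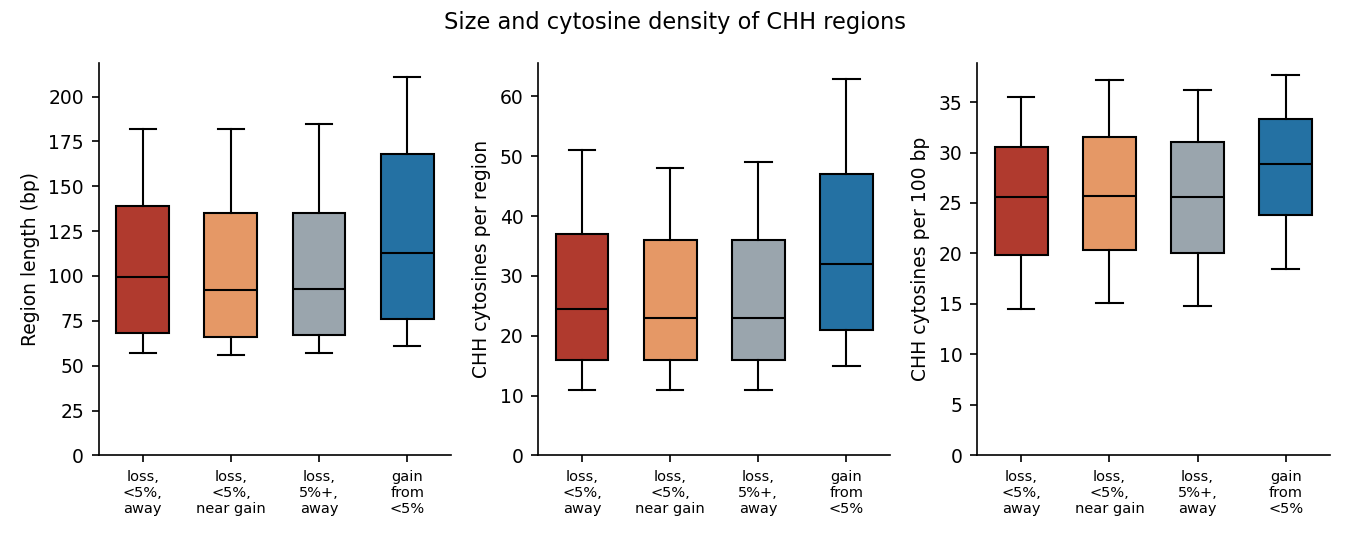
Region length (bp), number of CHH cytosines and CHH cytosines per 100 bp in 4 sets: the 736 low-level losses, the 373 losses under 5% near a gain, the 2215 other losses away from gains and the 7243 gains from under 5%; boxes show quartiles and median, whiskers the 10th and 90th percentile of regions. The 3 sets of losses have medians of 92 to 99.5 bp, and the gains one of 113 bp.

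Low-level regions were lost less often than gained, but made up a somewhat larger share among losses than among gains. Of the 8671 CHH regions on chromosomes in which the group with less methylation was under 5%, 1109 were losses (12.8%, exact binomial interval 12.1 to 13.5), against 9.71% among all CHH regions on chromosomes. Put the other way, 24.5% of the 4533 losses (23.2 to 25.7) had a bagged level under 5%. Of the 42128 gains, 18.0% (17.6 to 18.3) had an unbagged level under 5%. These intervals cover counting error only, since neighbouring regions are not independent.

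A gain lay close to low-level and to other losses about equally often. Of the 1109 losses with a bagged level under 5%, 33.6% (exact binomial interval 30.9 to 36.5) had a gain within 2000 bp, and of the 3424 other losses 35.3% (33.7 to 36.9). Beyond that gap, which the selection fixed, the nearest gain of a low-level loss was at a median of 6389 bp (quartiles 3787 and 11137), and that of the other losses at 6395 bp (3760 and 11252). Within 50 kb a low-level loss had a median of 8 CHH gains (quartiles 6 and 10) and 1 other CHH loss, and the other losses had 8 and 1 as well. All but 1 of the 736 low-level losses and all but 2 of the 2215 other losses had at least 1 CHH gain within 50 kb. The chromosomes held 81.8 to 92.3 CHH gains per Mb, so these numbers are near the general density of gains. Losses under 5% near a gain had a median of 10 gains within 50 kb, and mirror gains 9.

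Most low-level losses had no other low-level loss within 10 kb. The median gap from a low-level loss to the next was 213148 bp (quartiles 83817 and 463685), and 34 of the 736 (4.62%, 3.22 to 6.40) lay within 10 kb of another, as 17 pairs and no larger group. The share that random placement of as many regions would give was not computed. It was 0% of 125 regions with a bagged limit of 2%, and 10.6% of 1558 with one of 10%, so the observed share rose with the number of regions. The 3 closest pairs were on chromosome 10 from 3794052 to 3794259, where both regions fell, from 17.4% to 2.46% and from 11.0% to 3.31%, on chromosome 9 from 18745655 to 18745866 (8.05% to 2.45% and 19.6% to 2.25%) and on chromosome 15 from 4356320 to 4356577 (19.1% to 4.01% and 11.7% to 4.64%). These pairs span 208, 212 and 258 bp. Joining low-level losses within 100 bp of each other gave 733 regions. No region of any context was found within 10 kb of 160 low-level losses (21.7%), a share close to the 20.4% of the other losses.

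The loss nearest to a low-level loss was low-level about as often as the loss nearest to another loss. Of the 124 low-level losses with another loss away from gains within 10 kb, the nearest was low-level in 29 (23.4%, 16.3 to 31.8). For the 404 other losses with such a neighbour it was low-level in 90 (22.3%, 18.3 to 26.7). Both shares lie near the 24.9% (23.4 to 26.5) that low-level losses make up of all 2951 losses away from gains.

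Where a CG or CHG region was called at a low-level loss, its methylation was lower in bagged skin too. A called CG or CHG region shared at least 1 bp with 16 of the 736 low-level losses (2.17%, 1.25 to 3.51), CG in 11 and CHG in 6, and 720 overlapped neither. Such an overlap was about as infrequent elsewhere, with 39 of the 2215 other losses away from gains (1.76%, 1.25 to 2.40), 12 of the 373 losses under 5% near a gain (3.22%, 1.67 to 5.55) and 93 of the 7243 mirror gains (1.28%, 1.04 to 1.57). All 11 overlapping CG regions and all 6 overlapping CHG regions were lower in bagged skin. Among all CG regions on chromosomes 61.6% were lower, and among all CHG regions 49.7%. The other losses away from gains showed the same direction in 25 of 25 overlapping CG and 18 of 18 overlapping CHG regions, so it was not particular to low-level losses. Of the mirror gains, 47 of 51 overlapping CG and 59 of 60 overlapping CHG regions were higher. All contexts were read from the same libraries, so these are not independent samples.

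Most of the overlapping CG regions were not heavily methylated. Their unbagged level had a median of 32.8% (range 10.4 to 64.7) and their bagged level a median of 9.68% (range 2.97 to 42.2). All 1207 lower CG regions on chromosomes had medians of 63.7% and 34.2%. In 10 of the 11, the unbagged CG level was under 50%, which held for 392 of the 1207, and in 9 the bagged level was under 20%, which held for 354. The median of the 6 CHG regions was 42.2% without and 12.1% with bags, and that of the 889 lower CHG regions 60.2% and 29.6%. The unbagged CHG level was under 50% in 4 of the 6 and in 301 of the 889, and the bagged level under 20% in 6 of the 6 and in 293 of the 889. The low-level losses were chosen for a low CHH level, and the part of this choice in the CG and CHG levels was not tested. Levels of the regions that overlap the other losses away from gains were not set beside these.

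Single loci show how far the contexts fell together. On chromosome 8, the low-level loss from 19509012 to 19509117 went from 13.6% to 2.52% in CHH context, and 6 CHG cytosines from 19509048 to 19509138 went from 72.1% to 10.1%. This was the largest CHG fall among the 6. On chromosome 2, the CHH level from 11936312 to 11936411 fell from 21.4% to 4.54%, and that of 6 CHG cytosines from 11936335 to 11936400 from 58.6% to 14.1%.

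The largest CG fall among the 11 was on chromosome 9, where the CHH level from 2958393 to 2958576 went from 12.8% to 3.37% and that of 5 CG cytosines from 2958513 to 2958566 from 42.7% to 9.68%. On the same chromosome the long region from 20586173 to 20586538 overlapped 28 CG cytosines, from 20586258 to 20586504, which went from 28.2% to 9.08%. On chromosome 15 from 4203013 to 4203186 every level was low: CHH went from 5.78% to 1.19%, and 24 CG cytosines from 4203023 to 4203122 from 10.4% to 3.57%. The loci named in this and the preceding paragraph, other than the long region and the locus that follows, were picked after their values were seen.

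A low-level loss overlapped both a CG and a CHG region at 1 place, on chromosome 13 from 2433502 to 2433611, where 25 CHH cytosines went from 16.1% to 3.56%. The CHG region, from 2433478 to 2433575, fell from 40.3% to 17.9% over 9 cytosines. The CG region, from 2433421 to 2433507, fell from 64.7% to 42.2% over 15 cytosines, but shares only 6 bp with the CHH region.

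**Figure D3:**
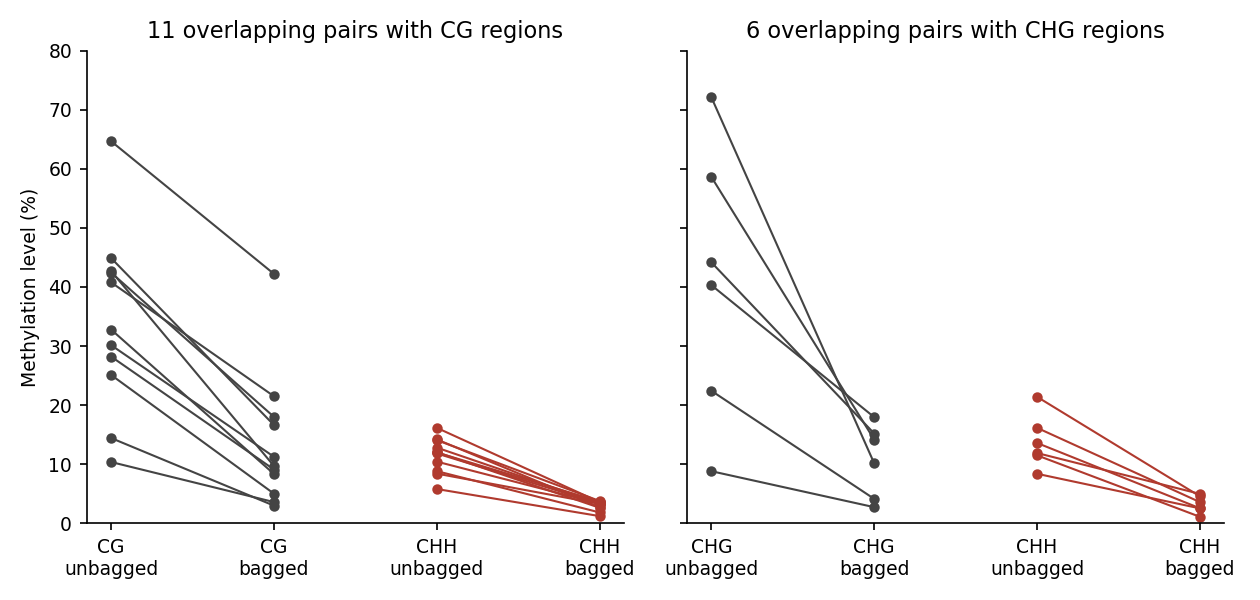
The authors' mean methylation levels (%, vertical axis) in unbagged and bagged skin at the low-level losses that overlap a CG region (left, 11 pairs) or a CHG region (right, 6 pairs); each line joins the 2 group means of 1 region, grey for CG or CHG and red for the CHH loss. Every line falls from unbagged to bagged skin, CG from a median of 32.8% to 9.68% and CHG from 42.2% to 12.1%.

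Away from the overlap, the nearest CG and CHG regions were not all lower in bagged skin. At a gap of up to 2 kb from a low-level loss, the nearest CG region was lower in bagged skin in 9 of 10 cases and the nearest CHG region in 10 of 18 (55.6%, exact binomial interval 30.8 to 78.5). From 2 to 10 kb, the nearest CG region was lower in 28 of 50 cases (56.0%, 41.3 to 70.0) and the nearest CHG region in 26 of 39 (66.7%, 49.8 to 80.9). The CG intervals from 2 to 10 kb and at up to 2 kb both include the 61.6% of all CG regions, the latter being 55.5 to 99.7. It also overlaps the interval of the 11 of 11 CG regions at the overlap (71.5 to 100). Of the CHG intervals, that at up to 2 kb includes the 49.7% of all CHG regions, while that from 2 to 10 kb begins just above it. For the other losses away from gains, the nearest CG region was lower in 22 of 32 and 81 of 152 cases at these distances. Their nearest CHG region was lower in 16 of 37 and 77 of 139. Differences between the sets were not tested.

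**Figure D4:**
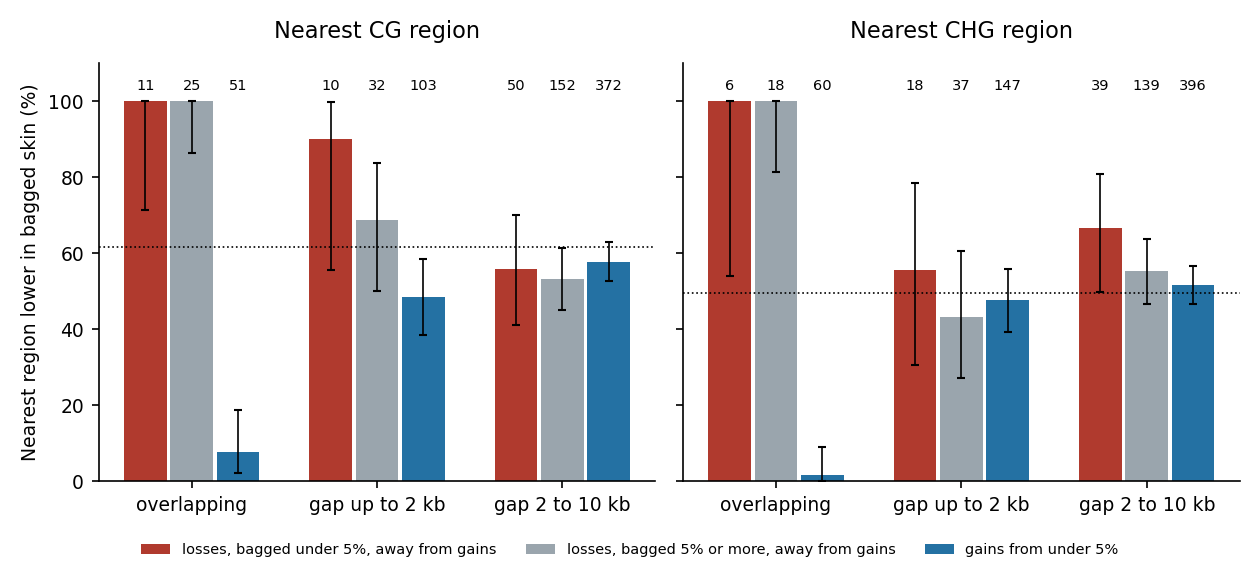
Share of nearest CG (left) and CHG (right) regions that were lower in bagged skin (%, vertical axis), by distance from the CHH region, for the low-level losses (red), the other losses away from gains (grey) and the gains from under 5% (blue); bars start at 0, error bars are 95% exact binomial intervals, the numbers above count CHH regions with a partner, and dotted lines mark the share among all CG (61.6%) or CHG (49.7%) regions on chromosomes. Overlapping regions mostly go with the direction of the CHH change; from 2 to 10 kb the shares of the 3 sets are 53.3 to 57.8% for CG and 51.8 to 66.7% for CHG.

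Low-level losses occurred on all 17 chromosomes, with 28 on chromosome 12 to 64 on chromosome 15, the latter also having the longest span of called regions (45.1 Mb). Per Mb of this span there were 1.51 in all, from 1.14 on chromosome 12 to 1.89 on chromosome 4. They made up 18.2% of the losses away from gains on chromosome 12 (exact binomial interval 12.4 to 25.2) and 30.8% on chromosome 4 (23.3 to 39.0). On every chromosome this interval included the overall share of 24.9%, so no chromosome stood apart at these counts. The median unbagged level was between 10.6% on chromosome 14 and 14.3% on chromosome 11.

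Along the chromosomes, the low-level losses were spread nearly evenly. The outermost 20% of the span of called regions at either end together held 320 of them (43.5%, 39.9 to 47.1), and the middle 20% held 139 (18.9%, 16.1 to 21.9). The other losses away from gains had 40.5% (38.4 to 42.6) in these outer parts, and the losses under 5% near a gain 40.2% (35.2 to 45.4), with 24.4% (20.1 to 29.1) of the latter in the middle 20%. The 1209 losses of 5% or more near a gain had 35.0% (32.3 to 37.8) in the outer parts, close to the gains. The mirror gains had 34.1% (33.0 to 35.2) there and 24.9% (23.9 to 25.9) in the middle 20%. The share in the outer parts was higher for low-level losses than for mirror gains on 13 of 17 chromosomes and lower on 4. Of all 42128 CHH gains, 22.4% lay in the middle 20%, and the selection keeps only losses away from gains; its part in this contrast was not tested.

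**Figure D5:**
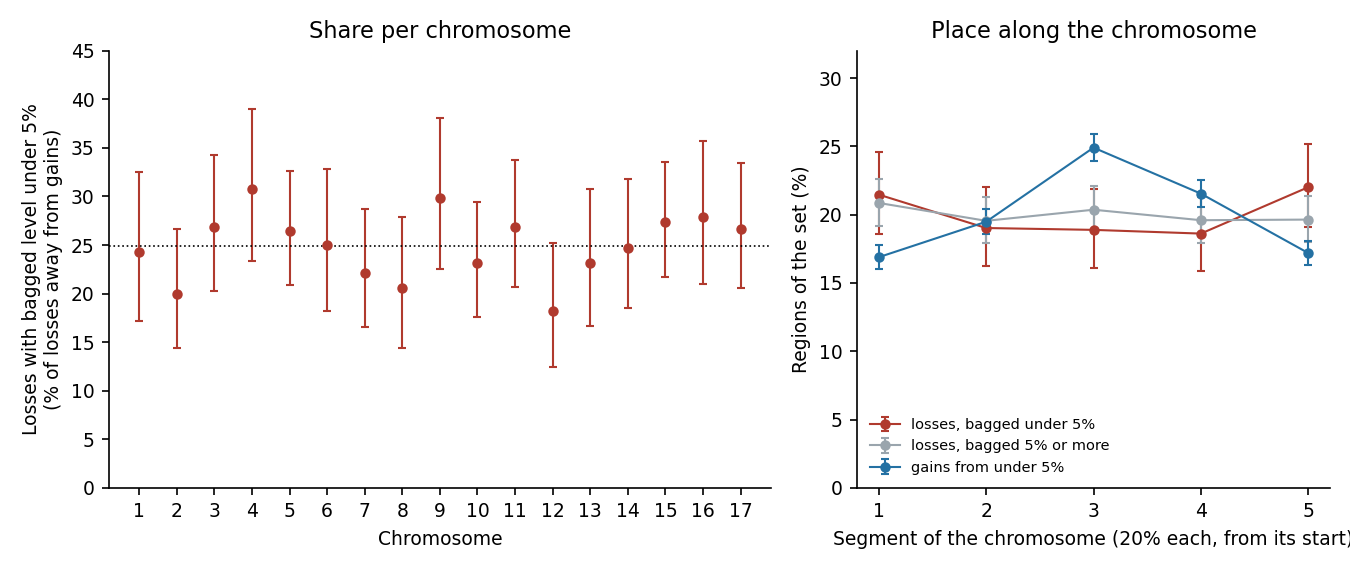
Left, low-level losses as a share of the losses away from gains (%) on each chromosome, with 95% exact binomial intervals and the overall share of 24.9% dotted; right, the share of each set (%) in each 20% segment of the span of called regions, with the same intervals. The intervals of all 17 chromosomes include the overall share, and gains from under 5% (blue) peak at 24.9% in the middle segment while low-level losses (red) have 18.9% there.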

How the data were processed

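Fruit skin DNA of 3 bagged and 3 unbagged samples was converted with bisulfite and made into Accel-NGS Methyl-Seq libraries, per the labels' protocols. Per the submitters' processing notes, FastQC and Bismark 0.16.3, a bisulfite aligner and methylation caller, were used. Genome build, trimming, conversion rate and the tool and limits behind the regions were not stated in the material used. Per the file headers, the authors deposited 1 mean methylation level per group and region, as a fraction, which is printed here as a percent. The deposited difference is the bagged minus the unbagged fraction in every region (within 1e-09). The score of the caller, an area statistic in the deposited table, was not used for a result. Positions have both ends included, are printed as deposited and were read as counted from 1, which was not stated. Scaffolds were left out.

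Gaps are the bases between 2 regions. Chromosome length was taken as the end of the last called region. The group means allow no test across samples, where 3 against 3 could not give an exact two-sided permutation p below 0.1, and no test over regions was made. Shares have exact (Clopper-Pearson) 95% intervals, which cover counting error only. Regions and comparison sets were chosen with earlier results of these data known. Named regions are the 10 of highest unbagged level with at least 10 cytosines, the 5 longest, the 5 with most cytosines, those overlapping both contexts, those at the limits and the 3 closest pairs. Python 3.11.15, pandas 2.3.3 and scipy 1.17.1 were used. The selection and the gap computation were tested on simulated regions.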

Additional observations from a re-analysis of the deposited data

How the results depend on the processing

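Of 59 alternative values for the selection, the overlap and the windows, 44 stayed within 1.5 times a count, the binomial interval of a share or the quartiles of a median. So did all 136 values with 1 chromosome left out, but those sets keep most of the regions (672 of 736 without chromosome 15). They could hardly leave these limits, and the quartiles over regions are a wide limit for a median. The number of low-level losses follows its limits: 125 with a bagged limit of 2%, 1558 with 10%, 462 with a gap of 5000 bp, 1109 with no limit on the gap and 74 with a difference of at least 20 points. Their share of the losses away from gains was then 4.24% at 2%, 52.8% at 10% and 10.8% at 20 points. At a limit of 2% the median unbagged level was 7.85%, and 0% lay within 10 kb of each other (up to 2.91% by the interval). In the outer 20% of chromosomes at either end lay 48.0% (39.0 to 57.1) of these 125 regions. At 10%, 10.6% lay within 10 kb of each other, and in the main set 2.72% lay within 5 kb and 7.88% within 20 kb. Taking losses that kept at most 25% of their level gave 551 regions, 411 of them low-level losses, with a median unbagged level of 18.8%. This alternative and those for the outer parts were chosen after seeing the data. The shifts in number follow from the stricter or wider limits. The interval of the share in the outer parts at 2% includes the 43.5% of the main set, and the shift was not tested. Median length and density stayed within the quartiles under every alternative run. No paired analysis was possible because the deposited means combine the replicates, and no replicate could be left out for the same reason. Depth is unknown, so what it limits cannot be stated.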

Other observations

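Unplaced scaffolds, which the selection leaves out, held 220 CHH losses, 129 of them away from gains. Of these, 41 on 35 scaffolds had a bagged level under 5% (31.8%, exact binomial interval 23.9 to 40.6), against 24.9% (23.4 to 26.5) on chromosomes. Their median levels were 12.5% in unbagged and 3.77% in bagged skin, with a median length of 86 bp and 28 cytosines. The difference in share was not tested.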
